A study of Mus musculus with 36 samples.

Results

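A set of 10 genes that mark or act on the blood vessels of a tumor was followed through 36 mouse mammary tumors. The rule lists them by name, and the list was drawn up with earlier results of these data known. They are Pecam1, Cdh5, Kdr, Flt1, Tek, Tie1 and Eng, which are receptors or junction proteins of endothelial cells, and Angpt2, Vegfa and Pgf, which are secreted factors. They are 10 of the 12394 genes on the array with a probe set of their own, and they were read by 15 of the 20393 probe sets that carry a single gene symbol. All 10 are present on the array, and no filter on low values was used, so every member stayed in every comparison. The one among the dimmest 25% of genes by mean level is Tie1.

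Blood vessels grow into a tumor when endothelial cells answer growth factors released around them. VEGF-A binds the receptor Kdr, which carries most of the growth signal, and Flt1, which binds VEGF-A and placental growth factor tightly and signals less. Angiopoietins act through the receptor Tek, with Tie1 as its partner, to hold vessels quiet or loosen them, and Eng is a co-receptor that endothelial cells use for ligands of the BMP and TGF-beta family. In solid tumors Vegfa is a classical target of the transcription factors that respond to low oxygen.

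The tumors were grown from 67NR or 66cl4 cells, which are sublines of one BALB/c mouse mammary carcinoma, and they fall into 8 groups by cell line, host and knockdown label. Each combination of line and host has 6 tumors labelled BPTF KD and 3 control tumors. BPTF is the largest subunit of the NURF chromatin remodeling complex, and the cells carried shRNA retroviruses before injection. Tumors labelled BPTF KD in one group mix 2 different hairpins. The hosts were NSG mice, given as NOD/SCID/Ifrg2r -/-, which lack T, B and NK cells, and BALB/c mice, which have them. All were females of 6 to 8 weeks, by the study's methods. 67NR tumors grew from 100000 cells in the fourth mammary fat pad and were taken at day 21, and 66cl4 tumors grew from 10000 cells and were taken at day 28. Line, cell number and day therefore cannot be told apart, and the hosts differ in strain as well as in immune cells. Necrotic tissue was cut away before RNA was made, and the RNA of a tumor mixes tumor cells, vessels and other host cells.

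Values are RMA log2 intensities, so a difference of 1 is a doubling of signal, and levels are compared only within a probe set. Differences were tested with limma, with Benjamini-Hochberg adjustment over the 12394 genes and a threshold of 0.05. Where groups are said below not to overlap, the share of all genes that separate as fully is not given here. The median of an array lay between 7.03 and 7.21, and pairs of arrays correlated at 0.918 to 0.9961. The knockdown label was checked first. In 66cl4 tumors of BALB/c hosts, Bptf was 8.68 to 9.12 in BPTF KD tumors and 9.50 to 10.61 in controls, with no overlap (exact permutation test, two-sided, p = 0.0119, the smallest that 84 splits allow). In 66cl4 tumors of NSG hosts the ranges were 8.56 to 9.15 and 9.14 to 9.18 (exact p = 0.0595). In 67NR tumors Bptf did not separate by label, with 9.15 to 10.01 in BPTF KD and 9.37 to 10.17 in control tumors of NSG hosts (exact p = 0.321), and 8.34 to 10.68 against 9.73 to 10.31 in BALB/c hosts (exact p = 0.929). For 67NR, "BPTF KD" below therefore means the library labelled so. The study also gives a Western blot of BPTF protein in extracts of control and BPTF KD cells of both lines. That is protein of cells, and not RNA of tumors that hold host cells. Skeletal muscle RNA varied widely: the mean of 12 muscle markers was 5.55 to 6.67 in 67NR tumors of NSG hosts, 5.48 to 11.77 in 67NR tumors of BALB/c hosts, 5.07 to 7.23 in 66cl4 tumors of NSG hosts and 6.64 to 11.32 in 66cl4 tumors of BALB/c hosts.

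Sequence upstream of the genes is given here for the receptors Tie1 and Flt1, the co-receptor Eng and the ligand Vegfa. The first 3 are all the members in which the ETS core named below was found. The windows run from 250 bases before to 50 bases after the transcript start and are RefSeq sequence on build GRCm38.p6. Of the 10 members, 7 have such a window in the table used, and Pecam1, Cdh5 and Angpt2 are named only. In the first 3 sequences the capitals mark the core of the motif bound by ETS factors, a family that many endothelial genes depend on, searched as AGGAAG and on the other strand as CTTCCT. In the Vegfa sequence they mark the core of the GC box bound by SP factors, searched as GGGCGG and CCGCCC.
Tie1 promoter, chr4:118489800-118490099, minus strand: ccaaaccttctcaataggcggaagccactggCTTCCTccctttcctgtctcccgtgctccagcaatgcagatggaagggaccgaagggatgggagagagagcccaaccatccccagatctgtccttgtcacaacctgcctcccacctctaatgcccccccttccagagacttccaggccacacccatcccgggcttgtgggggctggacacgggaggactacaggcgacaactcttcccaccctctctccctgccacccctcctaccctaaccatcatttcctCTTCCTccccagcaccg
Flt1 promoter, chr5:147725962-147726261, minus strand: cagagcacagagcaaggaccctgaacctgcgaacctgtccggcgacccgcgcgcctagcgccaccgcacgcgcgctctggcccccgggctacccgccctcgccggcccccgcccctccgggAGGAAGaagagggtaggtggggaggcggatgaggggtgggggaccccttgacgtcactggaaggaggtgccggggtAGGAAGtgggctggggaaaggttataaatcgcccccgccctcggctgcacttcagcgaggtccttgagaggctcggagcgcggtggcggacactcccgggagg
Eng promoter, chr2:32646345-32646644, plus strand: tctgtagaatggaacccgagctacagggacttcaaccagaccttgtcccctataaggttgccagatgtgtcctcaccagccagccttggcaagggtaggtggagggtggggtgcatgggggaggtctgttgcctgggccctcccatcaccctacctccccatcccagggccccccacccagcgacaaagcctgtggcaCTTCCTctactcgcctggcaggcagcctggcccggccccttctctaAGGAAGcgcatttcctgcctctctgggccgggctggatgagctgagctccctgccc
Vegfa promoter, chr17:46032328-46032627, minus strand: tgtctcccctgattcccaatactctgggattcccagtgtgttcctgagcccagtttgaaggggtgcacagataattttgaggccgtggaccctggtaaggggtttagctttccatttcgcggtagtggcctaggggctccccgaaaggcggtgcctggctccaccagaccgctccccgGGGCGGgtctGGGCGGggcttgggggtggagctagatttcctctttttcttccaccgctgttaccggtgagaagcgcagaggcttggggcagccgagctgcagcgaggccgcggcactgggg
The ETS core stood in the windows of Eng, Tie1 and Flt1, 3 of the 7 genes, and in 35.4% of all 32851 promoter windows. The GC box core stood in those of Kdr, Flt1, Pgf and Vegfa, 4 of the 7, and in 35.7% of all windows. The core of the hypoxia response element, ACGTG or CACGT, was found in 1 of the 7, at a second start of Vegfa on the same strand (chr17:46025114-46025413), and in 19.6% of all windows. This second window lay inside the gene, which runs from 46016993 to 46032377, and the Vegfa window shown above held no such match. The 7 genes have 9 windows, since Pgf and Vegfa have more than 1 each. The counts of members are by gene and the shares of all promoters by window, so they are not the same measure. No match of one motif overlapped a match of another. A match is a run of letters and not a shown binding site, and no match says only that the letters are not in this window.

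The first comparison is between the cell lines, over both hosts and both labels. In 67NR tumors 9 of the 10 genes were higher than in 66cl4 tumors, all but Pgf, beside 24.2% of all genes called higher and 25.2% called lower. The median difference of the 10 was 0.70 on the log2 scale, beside -0.01 over all genes. Cdh5 (2.03-fold), Pecam1 (2.02-fold), Flt1 (1.92-fold) and Vegfa (1.88-fold) differed most. In RNA of whole tumors, fewer endothelial cells and less RNA per endothelial cell cannot be told apart.

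Pecam1, the adhesion protein CD31 used to count vessels, was lowest 6.05, median 6.52 and highest 6.93 in the 9 67NR tumors of NSG hosts, against 4.65, 5.26 and 5.80 in the 9 66cl4 tumors of the same host. In BALB/c hosts it was 5.42, 6.35 and 7.95 in 67NR tumors, against 5.20, 5.60 and 6.50 in 66cl4 tumors. Every 67NR tumor lay above every 66cl4 tumor in NSG mice, while in BALB/c mice the lines overlapped. The difference over both hosts was 1.01 ± 0.17 (SE, limma adjusted p = 7.25e-06). Among the controls of BALB/c hosts alone it was 0.10 (limma adjusted p = 0.91), beside 1.22 to 1.37 in the other strata of host and label.

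Cdh5, VE-cadherin of the junctions between endothelial cells, had a lowest, median and highest value of 7.72, 8.07 and 8.71 in 67NR tumors of NSG hosts, against 6.07, 6.51 and 7.32 in 66cl4 tumors. In BALB/c hosts these were 7.06, 8.58 and 8.85 in 67NR tumors, against 7.13, 7.54 and 8.40 in 66cl4 tumors. The 2 lines were apart in NSG mice and overlapped in BALB/c mice, where 7 of 9 67NR tumors stood above and 1 below every 66cl4 tumor. The difference was 1.02 ± 0.15 (limma adjusted p = 7.22e-07). A second, dimmer Cdh5 probe set, between 4.41 and 5.30 in all tumors, gave 0.11 (limma adjusted p over all probe sets = 0.198), so the result for Cdh5 rests on the brighter one.

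Flt1 separated the lines fully. It lay between 7.47 and 8.81 in the 18 67NR tumors, against 6.52 to 7.41 in the 18 66cl4 tumors. No 67NR tumor fell within the 66cl4 range in either host. The difference was 0.94 ± 0.11 (limma adjusted p = 2.74e-08), and the other 2 Flt1 probe sets gave 1.27 and 0.55 (limma adjusted p over all probe sets = 3.46e-11 and 0.000154). Kdr, the main signaling receptor for VEGF-A, was 7.28, 7.59 and 8.16 (lowest, median, highest) in 67NR tumors of NSG hosts, against 6.48, 6.77 and 6.96 in 66cl4 tumors. In BALB/c hosts it was 7.08, 7.69 and 8.41 in 67NR tumors, against 6.65, 6.98 and 7.51 in 66cl4 tumors. The lines were apart for Kdr in NSG mice and overlapped in BALB/c mice, with a difference of 0.75 ± 0.10 (limma adjusted p = 2.72e-07).

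The angiopoietin receptors and the co-receptor differed by less. Tek was 5.10, 5.72 and 6.65 in 67NR tumors of NSG hosts, against 4.74, 5.22 and 5.60 in 66cl4 tumors, and 5.30, 6.28 and 6.97 in 67NR tumors of BALB/c hosts, against 4.89, 5.52 and 5.91 in 66cl4 tumors. Tie1 was 5.18, 5.54 and 5.90 against 4.33, 4.73 and 5.10 in 67NR and 66cl4 tumors of NSG hosts, and 4.98, 5.62 and 5.98 against 4.97, 5.11 and 5.58 in those of BALB/c hosts. The ranges of Tek overlapped in both hosts and those of Tie1 in BALB/c mice only. Their differences were 0.65 ± 0.13 for Tek (limma adjusted p = 8.92e-05) and 0.62 ± 0.08 for Tie1 (limma adjusted p = 9.75e-08). Eng was 8.03, 8.11 and 8.43 in 67NR tumors of NSG hosts, against 7.78, 7.84 and 7.94 in 66cl4 tumors, and 8.01, 8.56 and 9.05 in 67NR tumors of BALB/c hosts, against 7.84, 8.01 and 8.31 in 66cl4 tumors. The lines were apart for Eng in NSG mice only, and the difference was 0.34 ± 0.06 (limma adjusted p = 1.93e-05). A second Eng probe set gave 0.35 (limma adjusted p over all probe sets = 6.26e-06). Within labels, the Eng difference was 0.62 in BALB/c and 0.425 in NSG tumors labelled BPTF KD (limma adjusted p = 1.32e-05 and 0.000863). In controls it was 0.06 and 0.25, neither called (limma adjusted p = 0.845 and 0.1985). Tek differed by 0.83 and 1.02 in tumors labelled BPTF KD, both called. In controls Tek differed by 0.71 and 0.03, neither called (limma adjusted p = 0.095 and 0.955). The change with label was itself not called for Eng or Tek in either host.

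Of the secreted factors, Angpt2, which endothelial cells release and which opposes the quieting action of Angpt1 on Tek, was 7.50, 8.24 and 8.44 in 67NR tumors of NSG hosts, against 7.60, 7.97 and 8.05 in 66cl4 tumors. In BALB/c hosts it was 7.90, 8.67 and 9.10 in 67NR tumors, against 7.56, 7.86 and 8.25 in 66cl4 tumors. The ranges overlapped in both hosts, and the difference was 0.46 ± 0.10 (limma adjusted p = 0.000217). Within NSG hosts alone it was 0.21 and was not called. Pgf, placental growth factor, which binds Flt1, was 8.14, 8.55 and 8.90 in 67NR tumors of NSG hosts, against 7.26, 7.81 and 8.58 in 66cl4 tumors, and 7.43, 7.91 and 8.80 in 67NR tumors of BALB/c hosts, against 7.85, 8.04 and 8.52 in 66cl4 tumors. Pgf ranges overlapped in both hosts. In NSG mice the difference between lines was 0.94 in tumors labelled BPTF KD (limma adjusted p = 2.56e-05 in the fit of 36 tumors) and -0.13 in controls (limma adjusted p = 0.744), and the difference over both hosts was 0.12 ± 0.10 (limma adjusted p = 0.317).

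**Figure D1:**
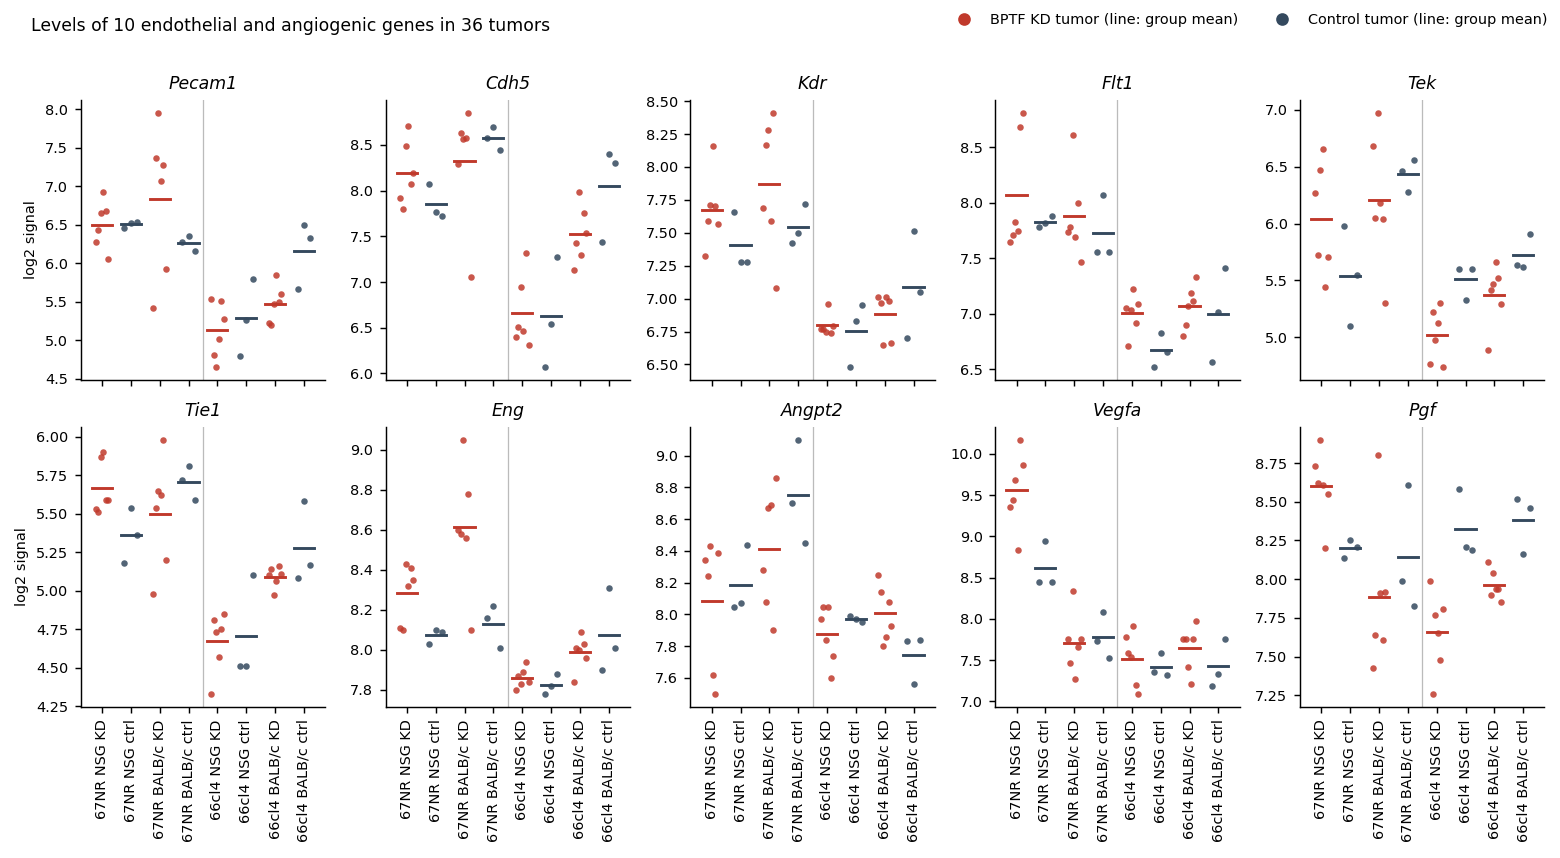
Log2 intensity (RMA) of the brightest probe set of each of the 10 genes in the 8 groups of tumors; dots are tumors (6 BPTF KD or 3 controls in a group) and lines are group means. Flt1 lies between 7.47 and 8.81 in 67NR tumors and between 6.52 and 7.41 in 66cl4 tumors, and Vegfa stands at 8.45 to 10.17 in 67NR tumors of NSG hosts only.

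Other endothelial genes went largely the same way. Of 25 further endothelial markers, 17 were higher and 2 lower in 67NR than in 66cl4 tumors, with a median of 0.49. Their mean ran from 6.99 to 7.59 in 67NR tumors of NSG hosts, against 6.74 to 7.20 in 66cl4 tumors, and from 7.40 to 7.72 in 67NR tumors of BALB/c hosts, against 6.85 to 7.18 in 66cl4 tumors. Nos3, the endothelial nitric oxide synthase, was higher by 1.31, Plvap, a protein of fenestrated vessels, by 1.23, and the junction protein Esam by 0.78, while Vwf, the clotting factor that endothelial cells store, was lower (-1.02), as was Cd93 (-0.48). Of 9 genes linked to the tip cells that lead a sprout, 7 were higher and none was lower, among them Esm1 (2.01), the potassium channel subunit Kcne3 (2.09), and Apln (0.74) with its receptor Aplnr (1.07). Of 8 Notch genes, 5 were higher, among them Notch4 (1.36), Notch1 (0.85) and the tip cell ligand Dll4 (0.58), and 1 was lower, the Notch target Nrarp (-0.43).

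The vessel wall followed in part. Of 13 pericyte and mural cell genes, 7 were higher and 1 lower in 67NR tumors, with Mcam at 0.86, Kcnj8 at 0.85 and smooth muscle actin Acta2 at 1.04, against -0.66 for the pericyte growth factor receptor Pdgfrb. Of 9 basement membrane genes, 8 were higher and none lower, among them the collagen Col4a1 (1.16), the laminin Lama4 (0.83) and the linker protein Nid1 (1.31). Genes of BMP and TGF-beta signaling in endothelium went the other way, with 6 of 8 lower and 1 higher, among them Id1 (-1.14) and Smad6 (-1.24) lower and Smad1 (0.31) higher.

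Ligands and inhibitors did not move as a block. Among the 6 other genes of the VEGF family and its co-receptors, Vegfd was higher (0.38) in 67NR tumors, and the lymphatic growth factor Vegfc (-3.93) and the co-receptor Nrp1 (-0.22) were lower. Of 6 angiopoietin and Tie pathway genes, 3 were higher, the ligands Angpt1 (0.44) and Angpt4 (0.49) and the phosphatase Ptprb (0.79), and 3 were lower, Dok2 (-1.68), Grb14 and Tnip2 (-0.26). Of 12 inhibitors of vessel growth, 6 were lower and 2 higher, with Thbs1, thrombospondin 1, at -2.85 and Timp3 at 0.75. Of 11 other angiogenic factors 5 were higher, among them Hbegf (2.29) and Angptl4 (1.01), and 2 lower, the chemokines Cxcl2 (-1.94) and Cxcl12 (-1.20). Of 7 tumor epithelium genes, 2 were lower in 67NR tumors, the keratins Krt8 (-5.80) and Krt18 (-3.11), and 1 was higher, with a median of -0.165. Of the other markers, 10 of the 12 for muscle were lower, 8 of 9 for proliferation were higher, and 6 of 11 for leukocytes were lower against 2 higher. The part of these cell types in the differences between the lines was not tested, except that the muscle mean was used as a covariate. With it all 10 of the members were called between the lines. The share of all genes called in that fit is not given here. Without the covariate 24.2% of all genes were called higher and 25.2% lower.

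**Figure D2:**
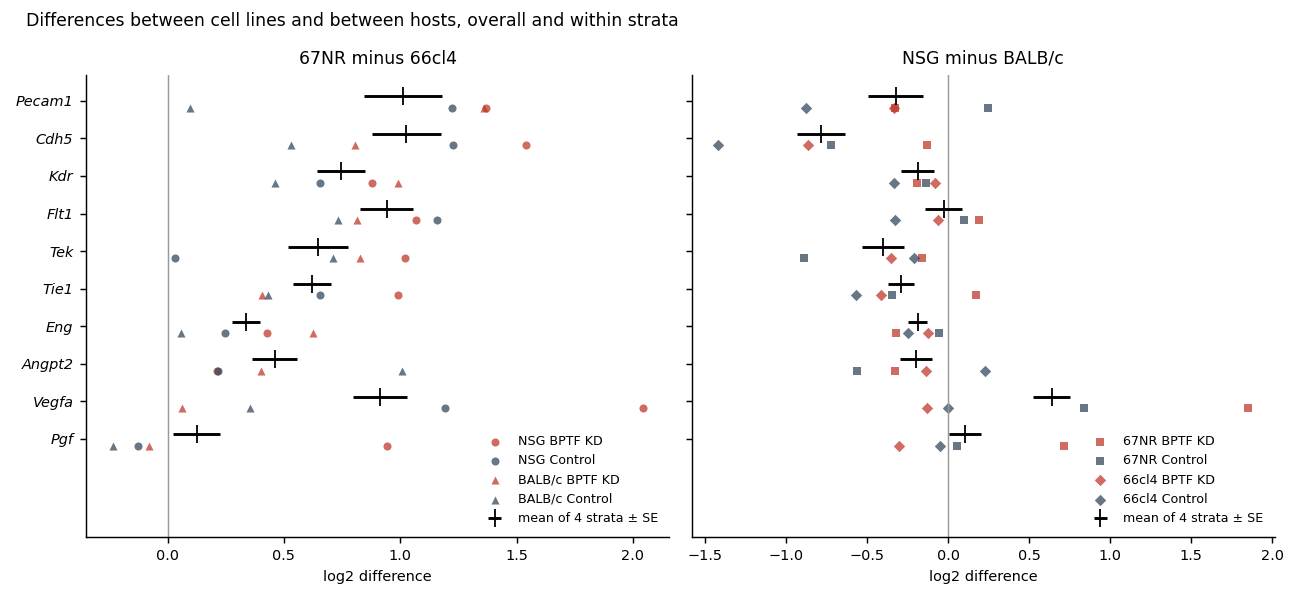
Log2 differences of the 10 genes for 67NR minus 66cl4 tumors and for NSG minus BALB/c hosts, as the mean of 4 strata ± SE, with each stratum of the other factors as a point. The 7 receptors and junction genes lie above 0 between the lines, by 0.34 to 1.02, and at or below 0 between the hosts.

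The second comparison is between hosts. In NSG mice 4 of the 10 genes, Cdh5, Tek, Tie1 and Eng, were lower than in BALB/c mice, and 1, Vegfa, was higher. Over all genes 15.8% were called lower and 12.8% higher. The median difference of the 10 was -0.19, beside -0.02 over all genes. Of the 4 called lower, Cdh5 differed most, by -0.79 ± 0.15 (limma adjusted p = 0.000172), followed by Tek at -0.40 ± 0.13 (limma adjusted p = 0.0185), Tie1 at -0.29 ± 0.08 (limma adjusted p = 0.00651) and Eng at -0.19 ± 0.06 (limma adjusted p = 0.0182). Pecam1 (-0.33, limma adjusted p = 0.148), Kdr (-0.19, 0.167), Angpt2 (-0.20, 0.128), Flt1 (-0.03, 0.883) and Pgf (0.10, 0.456) were not called.

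The stratum with the lower level varied by gene. For Cdh5, 7 of the 9 66cl4 tumors of NSG hosts lay below every 66cl4 tumor of BALB/c hosts, and for Tie1 8 of 9 did. Within strata of the fit over 36 tumors, the host difference of Cdh5 was -0.87 in 66cl4 BPTF KD tumors (limma adjusted p = 0.032) and -1.42 in 66cl4 controls (limma adjusted p = 0.025), beside -0.13 in 67NR tumors labelled BPTF KD and -0.72 in 67NR controls (limma adjusted p = 0.29). For Eng the host difference was called in 67NR tumors labelled BPTF KD (-0.33 in the same fit, limma adjusted p = 0.0114), beside -0.13 in 66cl4 BPTF KD tumors, and for Tek it was farthest from 0 in 67NR controls (-0.89, limma adjusted p = 0.104). The difference between the 2 lines in the host effect was 0.72 for Cdh5, -0.24 for Tek, 0.40 for Tie1 and -0.0042 for Eng, and none was called (limma adjusted p = 0.096, 0.54, 0.0812 and 0.985).

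Muscle and leukocyte markers moved with the host as well: 11 of 12 muscle markers were lower in NSG mice and none was higher, and 8 of 11 leukocyte markers were lower and 1 higher. The mean of the leukocyte markers ran from 8.58 to 8.93 in 67NR tumors of NSG hosts, against 9.25 to 11.25 in BALB/c hosts, and from 9.27 to 9.57 in 66cl4 tumors of NSG hosts, against 9.63 to 10.24 in BALB/c hosts. With the muscle mean as a covariate, an alternative chosen after seeing the data, the host difference stayed called for Cdh5 (-0.71, limma adjusted p = 0.0143) and Vegfa (0.77, limma adjusted p = 0.000553) and was not called for Tek (-0.24), Tie1 (-0.25) and Eng (-0.08), whose limma adjusted p were 0.355, 0.113 and 0.507. The part of leukocytes was not tested. With the 3′ to 5′ signal of actin and Gapdh as a covariate, a measure of RNA integrity whose group means ran from 0.49 to 0.81, Pecam1 (-0.67, limma adjusted p = 0.000924) and Kdr (-0.33, limma adjusted p = 0.0135) were also called, and Tek was not.

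Of the 25 further endothelial markers, 12 were lower and 3 higher in NSG hosts, and 10 were not called, with a median of -0.25. Sox18, a transcription factor of endothelial cells, was at -0.58, the guidance receptor Robo4 at -0.47 and Nos3 at -0.47, while Cd93 (0.60), Cd34 (0.55) and Tal1 (0.41) were higher. Among the VEGF family and Notch genes a single gene each was called, Flt4 (-0.17) and Notch1 (-0.63), both lower. Of the 9 tip cell genes 4 were higher and 1 lower, and of the 13 pericyte genes 4 were lower and none was higher. Of 4 lymphatic endothelial genes, Lyve1, which some macrophages also carry, was higher (1.51), and Pdpn (-0.79) and Reln (-0.20) were lower.

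**Figure D3:**
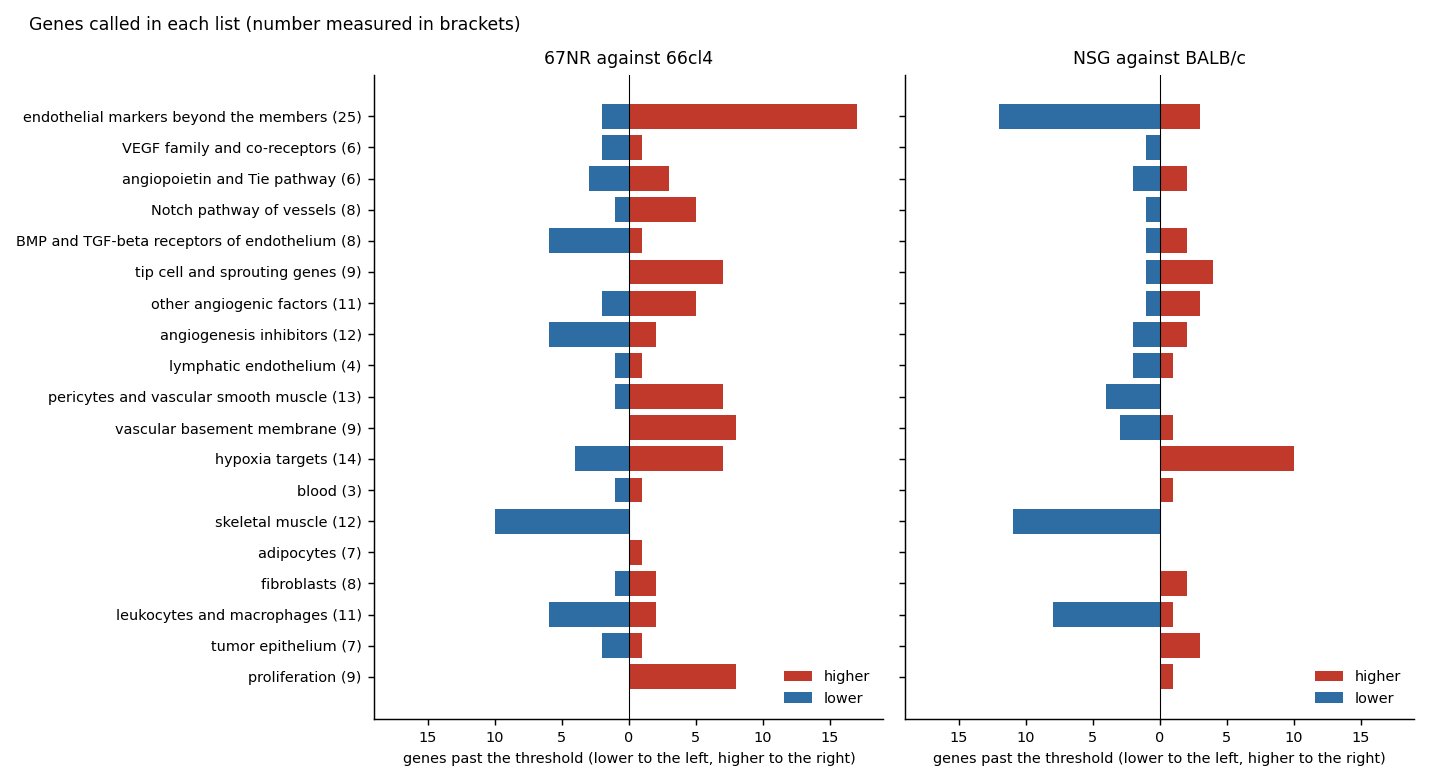
Number of genes called higher (right of 0) and lower (left of 0) in each gene list, for 67NR against 66cl4 tumors and for NSG against BALB/c hosts. Of 25 further endothelial markers 17 were higher in 67NR tumors and 12 were lower in NSG hosts.

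Vegfa had the pattern that stood apart from the other members. It was high in 67NR tumors of NSG hosts and lower in all other tumors. There it was 8.84, 9.56 and 10.17 (lowest, median, highest) in the 6 tumors labelled BPTF KD, against 8.45, 8.45 and 8.94 in the 3 controls. In 67NR tumors of BALB/c hosts it was 7.27, 7.71 and 8.34 in tumors labelled BPTF KD, against 7.52, 7.73 and 8.08 in controls. All 9 67NR tumors of NSG hosts thus lay above each of the other 27 tumors, which ran from 7.09 to 8.34. In 66cl4 tumors the 9 values were 7.09 to 7.91 in NSG hosts and 7.19 to 7.97 in BALB/c hosts.

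The host effect on Vegfa differed between the lines by 1.41 ± 0.23 (limma adjusted p = 0.000112), beside 7.41% of all genes called higher and 7.85% called lower in that difference. Vegfa was the 1 member called in it. By stratum of the fit over 36 tumors, NSG minus BALB/c was 1.85 in 67NR tumors labelled BPTF KD (limma adjusted p = 5.13e-09) and 0.84 in 67NR controls (limma adjusted p = 0.0807), and it was -0.13 and -0.00 in 66cl4 BPTF KD and control tumors (limma adjusted p = 0.796 and 0.995). Fitted on the 12 control tumors alone, the difference of host effects was 0.84 (limma adjusted p = 0.0586) and the host difference 0.42 (limma adjusted p = 0.0643), neither called. Over the whole design Vegfa differed by 0.64 ± 0.11 between hosts (limma adjusted p = 9.09e-05) and by 0.91 ± 0.11 between lines (limma adjusted p = 5.89e-08), while within BALB/c hosts alone the lines differed by 0.21 (limma adjusted p = 0.351). The second Vegfa probe set moved the same way and less, with 0.62 for the difference of host effects (limma adjusted p over all probe sets = 0.0114).

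Genes that respond to low oxygen were also higher on average in the 67NR tumors of NSG hosts, where Vegfa was high. The mean of 14 such genes, Vegfa not among them, was lowest 10.16, median 10.71 and highest 11.85 in 67NR tumors of NSG hosts, against 9.22, 9.32 and 10.34 in 67NR tumors of BALB/c hosts. It was 9.71, 9.99 and 10.21 in 66cl4 tumors of NSG hosts, against 9.70, 10.04 and 10.26 in those of BALB/c hosts. The 67NR tumors split by host except for 1 BALB/c tumor, and the 66cl4 tumors overlapped throughout. Within BALB/c hosts the list had a lower median in 67NR than in 66cl4 tumors, while the Vegfa medians were 7.73 and 7.75. In the difference of host effects 9 of the 14 were called higher and none lower, with a median of 1.18, among them the pyruvate dehydrogenase kinase Pdk1 (3.25), the vasodilator peptide gene Adm (3.45), P4ha1 (1.72) and the oxygen sensor Egln1 (1.14). Between lines over both hosts, 7 of the 14 were higher in 67NR tumors and 4 lower. Between hosts over both lines, 10 of the 14 were higher in NSG mice and none lower, including Pdk1 (1.45), Car9 (1.41), Bnip3 (1.24) and Ero1a (0.76).

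The tumors' deviations from their own group means in Vegfa and in that mean correlated at 0.759 over 36 tumors, and the uncentred values at 0.792. Both values of a point come from one array, so they share its RNA quality and composition. Among all genes, those whose deviations were most like those of Vegfa were Slc2a1 (0.78), Ero1a (0.759), Tpi1 (0.737), Bves (0.714) and Ldha (0.709). In the same difference of host effects 3 of the 6 other VEGF family genes were higher, Vegfb (0.89), Vegfc (1.23) and Vegfd (0.81), and so were 4 of the 9 tip cell genes, Adm, which stands in both lists, Kcne3 (1.69), Esm1 (0.98) and Unc5b (1.32), with Plaur lower (-0.73). Of other cell types' markers, 11 of 12 for muscle, 6 of 8 for fibroblasts and 4 of 13 for pericytes were higher and 5 of 11 for leukocytes were lower in that difference. With the muscle mean as a covariate, chosen after seeing the data, the Vegfa difference was 1.17 (limma adjusted p = 0.00733), and the part of the other cell types was not tested.

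**Figure D4:**
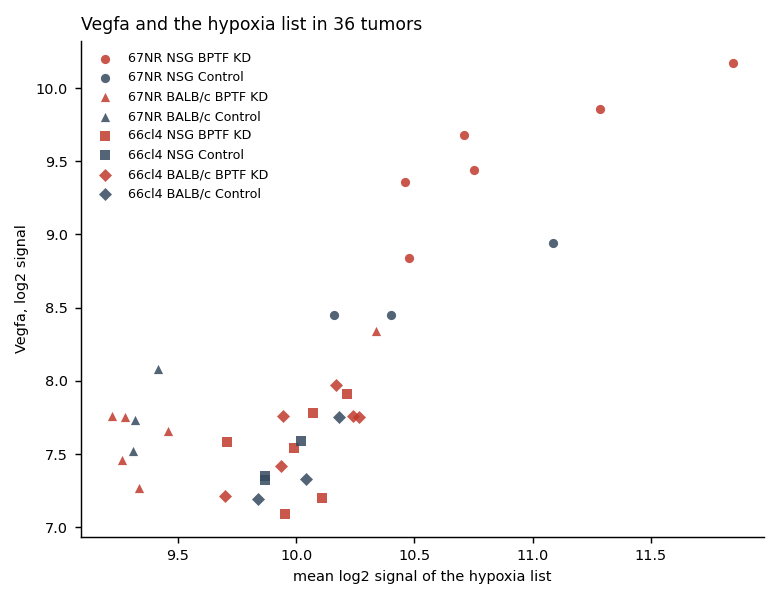
Vegfa log2 intensity of each tumor (vertical axis) against the mean log2 intensity of 14 genes that respond to low oxygen (horizontal axis), with marks by line, host and knockdown label. The 9 67NR tumors of NSG hosts lie at 8.45 to 10.17 for Vegfa and at 10.16 to 11.85 for the list, and the other 27 lie at or below 8.34 for Vegfa.

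The third comparison is BPTF KD against control within each line and host, the question the study was built on. None of the 10 genes passed the threshold in any of the 4 comparisons. Over all genes, 1.14% were called in 67NR tumors of NSG hosts, 0% in 67NR tumors of BALB/c hosts, 0% in 66cl4 tumors of NSG hosts and 0.186% in 66cl4 tumors of BALB/c hosts, and 1.9% in the mean of the 4 comparisons, where no member was called either. Leaving out 1 tumor moved the number of genes called widely, to between 5 and 620 against 141 in 67NR tumors of NSG hosts, 0 and 2208 against 23 in 66cl4 tumors of BALB/c hosts, and 49 and 1046 against 236 in the mean. Before adjustment, 3, 1, 3 and 4 of the 10 had limma p under 0.05 in these 4 comparisons, beside 1751, 961, 952 and 3193 of the 12394 genes. The median differences of the 10 were 0.29, -0.14, -0.00 and -0.20, beside 0.02, -0.00, 0.01 and 0.03 over all genes, so their sign varied with line and host. The methods' test, a 2-group test on each gene, called none of the 10 after Benjamini-Hochberg adjustment. A p that misses the threshold does not show that levels were alike, since 6 tumors against 3 leave standard errors of 0.11 to 0.50 for the values named below.

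Vegfa in 67NR tumors of NSG hosts had the largest of these differences. The 6 tumors labelled BPTF KD had 8.84, 9.36, 9.44, 9.68, 9.86 and 10.17, against 8.45, 8.94 and 8.45 in the 3 controls. All but 1 of the labelled tumors lay above every control. The difference was 0.95 ± 0.25, a 1.93-fold higher signal (limma adjusted p = 0.108). In the fit over all 36 tumors its adjusted p was 0.036, so the call depends on which tumors set the spread. In the other comparisons Vegfa differed by -0.07 in 67NR tumors of BALB/c hosts, 0.10 in 66cl4 tumors of NSG hosts and 0.22 in 66cl4 tumors of BALB/c hosts. In the second Vegfa probe set the 67NR difference in NSG hosts was 0.26 (limma adjusted p over all probe sets = 0.65).

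Pgf was below its controls in 66cl4 tumors of both hosts, without passing the threshold. In 66cl4 tumors of NSG hosts it was lowest 7.26, median 7.71 and highest 7.99 in BPTF KD tumors, against 8.19, 8.21 and 8.58 in controls. In 66cl4 tumors of BALB/c hosts it was 7.85, 7.94 and 8.11, against 8.16, 8.46 and 8.52. All 6 BPTF KD tumors lay below every control in each host. The differences were -0.67 ± 0.16 in NSG hosts (limma adjusted p = 0.551) and -0.42 ± 0.11 in BALB/c hosts (limma adjusted p = 0.0744). Among all genes of these comparisons, limma p before adjustment was under 0.05 for 7.68% in NSG and 25.8% in BALB/c hosts.

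In 67NR tumors of NSG hosts Pgf was 8.20, 8.62 and 8.90 in tumors labelled BPTF KD, against 8.14, 8.21 and 8.25 in controls. Of the labelled tumors 5 of 6 lay above every control, with a difference of 0.40 ± 0.14 (limma adjusted p = 0.214). The values in 67NR tumors of BALB/c hosts were 7.43, 7.78 and 8.80, against 7.83, 7.99 and 8.61, a difference of -0.26 (limma adjusted p = 0.841). In NSG hosts the difference between tumors labelled BPTF KD and controls was 1.07 ± 0.22 higher in 67NR than in 66cl4 tumors, which passed the threshold (limma adjusted p = 0.0266) beside 0.96% of all genes called, although Bptf itself was not separated by label in the 67NR tumors. Pgf was the 1 member of the 10 called there. The call was lost in the fit of all 36 tumors (limma adjusted p = 0.191) and in 4 of the 18 fits that left out 1 tumor each, when 67NR control replicate 1 or 3 or 66cl4 control replicate 1 or 2 was left out. In BALB/c hosts this difference between lines was not called for any member, nor was the difference between hosts in 67NR or in 66cl4 tumors, beside 0% of all genes called in each (854 to 1476 genes had limma p under 0.05).

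**Figure D5:**
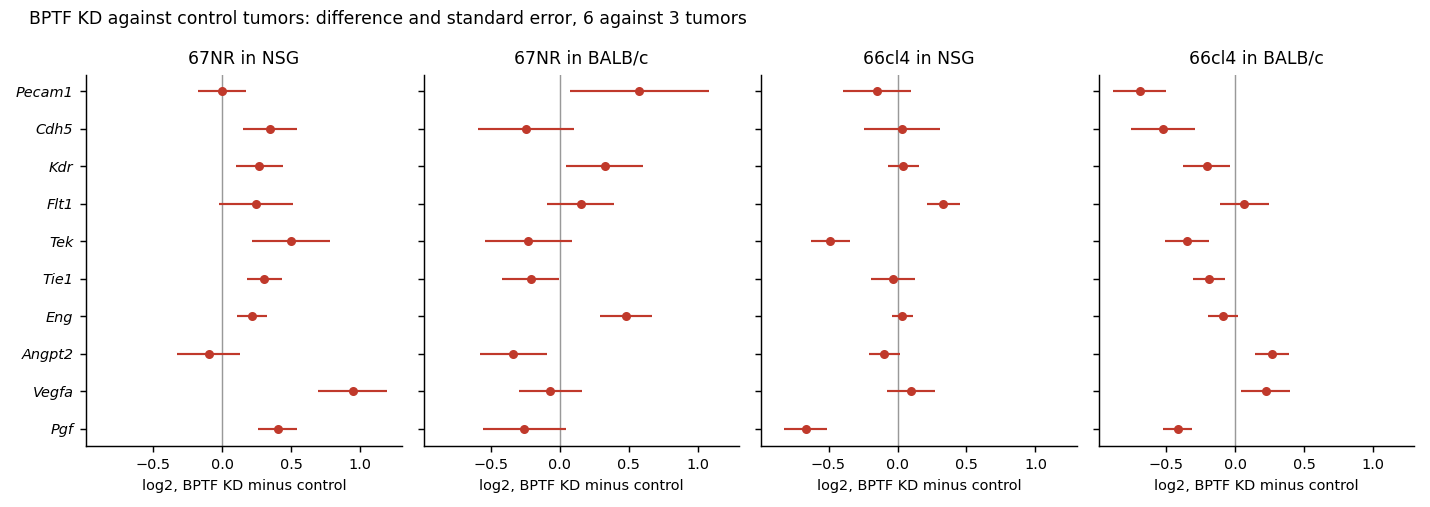
Log2 difference ± SE, BPTF KD minus control, of the 10 genes in each line and host (6 against 3 tumors in each panel). No difference passed the adjusted threshold, and the values for Vegfa (0.95) and Pgf (-0.67) in NSG hosts lie farthest from 0 among the secreted factors.

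Endothelial receptors varied by line and host without a call. Pecam1 in 66cl4 tumors of BALB/c hosts was 5.20, 5.48 and 5.85 (lowest, median, highest) in BPTF KD tumors, against 5.67, 6.32 and 6.50 in controls. Of the BPTF KD tumors, 5 of 6 lay below every control. The difference was -0.69 ± 0.19 (limma adjusted p = 0.0805). Without control replicate 1 it was -0.94 (limma adjusted p = 0.00966), and that of Cdh5, -0.52 ± 0.23 with all tumors (limma adjusted p = 0.186), was -0.83 (limma adjusted p = 0.0222), in a fit that called 2208 of the 12394 genes against 23 with all tumors. In 67NR tumors of BALB/c hosts Pecam1 differed by 0.57 ± 0.50 (limma adjusted p = 0.792).

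Tek in 66cl4 tumors of NSG hosts lay between 4.74 and 5.30 in the 6 BPTF KD tumors, against 5.60, 5.33 and 5.60 in the controls. No BPTF KD tumor reached a control, and the difference was -0.49 ± 0.14 (limma adjusted p = 0.556). It was -0.35 in 66cl4 tumors of BALB/c hosts (limma adjusted p = 0.191) and 0.50 in 67NR tumors of NSG hosts (limma adjusted p = 0.472), where leaving out 1 tumor gave 0.28 to 0.72. Eng in 67NR tumors of BALB/c hosts was 8.10, 8.59 and 9.05 (lowest, median, highest) in tumors labelled BPTF KD, against 8.01, 8.16 and 8.22 in controls. Of the labelled tumors 5 of 6 lay above every control. Its difference of 0.48 ± 0.19 was not called (limma adjusted p = 0.619), while in the fit over 36 tumors its adjusted p was 0.0167. The remaining differences of receptors and junction genes were also not called, among them Flt1 in 66cl4 tumors of NSG hosts at 0.33 ± 0.12 (limma adjusted p = 0.579). The dimmer Flt1 probe sets gave 0.055 and 0.073 there. In 67NR tumors of NSG hosts a dimmer Flt1 probe set gave 0.46 (limma adjusted p over all probe sets = 0.115), beside 0.245 for the brightest and -0.075 for the dimmest.

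A few other genes of the vessel lists were called between BPTF KD and control. In 67NR tumors of NSG hosts the adaptor Grb14, which binds activated Tek, differed by 1.28 (limma adjusted p = 0.0246) and the growth factor Pdgfa by 0.53 (limma adjusted p = 0.0347), both higher, and Pdpn, a protein of lymphatic endothelium and some stromal cells, was lower (-1.65, limma adjusted p = 0.00681). In the same comparison the fibroblast genes Dcn (limma adjusted p = 0.00152) and Ogn (2.38, limma adjusted p = 0.00583) and the keratin Krt8 (1.68, limma adjusted p = 0.00505) were higher, and their part in the other values was not tested. In the mean of the 4 comparisons the guidance molecule and vessel inhibitor Sema3a (-0.95, limma adjusted p = 0.0214) and Lyve1 (-1.04, limma adjusted p = 0.0431) were lower.

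The order of the 8 group means differed by gene. For Flt1 the 4 groups of 67NR tumors came first, 8.07 ± 0.53 to 7.73 ± 0.29 (SD), and the 4 of 66cl4 tumors after a gap larger than the SD of its neighbours, 7.07 ± 0.19 to 6.67 ± 0.16. For Vegfa 67NR tumors of NSG hosts came first, 9.56 ± 0.46 with the BPTF KD label and 8.61 ± 0.28 without, and the other 6 groups, 7.78 ± 0.28 to 7.42 ± 0.15, were not apart from their neighbours. For Pgf, Kdr and Angpt2 no 2 neighbouring means differed by more than the larger SD. For Pecam1, Tek and Tie1 a single gap did, and for Cdh5 the lowest means, 6.66 ± 0.39 and 6.63 ± 0.60, were those of 66cl4 tumors of NSG hosts.

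Within the groups, deviations of the 7 receptors and junction genes from group means correlated between -0.002 and 0.682 for the 21 pairs over the 36 tumors, with a median of 0.544. The mean of the 7 correlated at 0.355 with the mean of the 25 further endothelial markers. Among the vessel lists it correlated most with the VEGF family and co-receptors (0.805), Notch (0.71) and basement membrane (0.7) lists. It correlated least with the other angiogenic factors (-0.445). Its correlation was 0.506 with the leukocyte markers, 0.385 with muscle, -0.435 with proliferation and -0.365 with the RNA integrity measure, whose part was not tested. Angpt2 ran against the 7 genes, at -0.485 to -0.08 with a median of -0.267, although it was higher in 67NR tumors as they were. Vegfa correlated at -0.22 to 0.624 with the 7, highest with Flt1, and Pgf at -0.11 to 0.304. Angpt2 and Pgf correlated at 0.536. The genes most like the mean of the 7 receptors and junction genes were Snrk (0.898), Rmnd5a (0.87), Copa (0.862), Ankrd44 (0.861) and Plxnd1 (0.86). Those most like Angpt2 were Surf1 (0.79) and Tmem9b (0.775), and most like Pgf were Sdf4 (0.72) and Abhd12 (0.707). These values describe 36 arrays on which depth of signal, RNA quality and tissue composition are shared by all genes, and they carry no test.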

How the data were processed

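The authors hybridised RNA from 36 tumors (500 ng each) to a mouse Affymetrix array and deposited a table of log2 intensities made with RMA, the tool given in the submitters' processing notes. RMA corrects background, quantile-normalizes arrays and summarizes probes, so it pulls array distributions together. A genome build is not given in the sources used here. Of 22690 probe sets, 20393 carry 1 symbol, 691 several and 1606 none. For each symbol, updated through RefSeq names for 20364 probe sets, the probe set with the highest mean stood for the gene, which left 12394 genes. Group means were compared with limma 3.58.1 in R 4.3.3, with empirical Bayes variances and Benjamini-Hochberg adjustment at 0.05. Knockdown comparisons used the 9 tumors of a line and host, interactions 18, and line, host and mean comparisons all 36. Scripts were tested on simulated data. Python 3.11.15 with NumPy 2.4.6 made summaries and the exact permutation tests.

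The rule for named genes took all 10 members, from each list up to 4 genes past the threshold with the smallest p in each direction, and the 5 genes most alike to a member. The members and the gene lists were chosen with earlier results of these data known. Alternatives were a fit over 36 tumors, the replicate number as a block, leaving out each tumor, the mean of probe sets, each probe set alone, quantile normalization, median subtraction, no dim genes, RNA integrity as a covariate, fits within one label and the methods' t-test, and, chosen after seeing the data, the muscle mean as a covariate and fits within one line or host. Nothing in the labels says how tumors of a group were housed or paired, so p-values measure the spread between tumors. Whether tumors of a group came from separate transductions is not stated either. That spread may therefore not cover variation between independent knockdowns. The precision is limited by the number of arrays.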

Additional observations from a re-analysis of the deposited data

Results flagged for a closer look

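Within single groups of 6 tumors, 3 values stood far from the rest by Dixon's criterion, of 40 groups of values examined, and chance alone gives about 1 in 20. In 67NR tumors of BALB/c hosts labelled BPTF KD, replicate 6 had the lowest Cdh5, 7.06, beside 8.29 to 8.85 in the other 5. In the same group replicate 3 had the highest Pgf, 8.80, beside 7.43 to 7.92 in the others. That tumor also had the highest muscle mean of its line, 11.77, a hypoxia mean of 10.34, a leukocyte mean of 11.25, Vegfa at 8.34, Pecam1 at 7.95 and Flt1 at 8.61, and their part in the Pgf value was not tested. In 66cl4 BPTF KD tumors of NSG hosts, replicate 4 had the highest Kdr, 6.96, beside 6.74 to 6.79.

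Effects that differed between groups by a test of the difference itself were the host effect on Vegfa, which was 1.41 higher in 67NR than in 66cl4 tumors, and the difference in Pgf between tumors labelled BPTF KD and controls in NSG hosts, which was 1.07 higher in 67NR than in 66cl4 tumors, with Bptf not separated by label in the 67NR tumors.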

How the results depend on the processing

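Over 1810 pairs of a member's difference and an alternative, 1724 kept their direction and their side of the threshold, 25 lost and 16 gained a call, and 45 changed sign, of which 1 was of a called value: Vegfa between hosts was -0.066 in 66cl4 tumors alone. Where a value changed, the cause was not tested. Number of members called, by comparison, changed as follows. In the fit of all 36 tumors it was 1 (Eng) in 67NR tumors of BALB/c hosts and 1 (Vegfa) in 67NR tumors of NSG hosts, against 0 each, and 0 against 1 (Pgf) for the difference between lines in the BPTF KD label effect in NSG hosts. Between hosts it was 3 in BPTF KD tumors alone, 3 in control tumors alone, 1 in 67NR tumors alone and 2 with the muscle covariate, against 5. In the difference of host effects it was 3 in BPTF KD tumors alone and 2 in control tumors alone, 2 without the dimmest 25% of genes and 2 with the mean of all probe sets of a gene, against 1. Between lines 9 were called in NSG hosts alone, where Pgf (0.41, from the tumors labelled BPTF KD at 0.94 and controls at -0.13) was called and Angpt2 was not, and 7 in BALB/c hosts alone, where Pecam1 (0.73, limma adjusted p = 0.0689) and Vegfa were not.

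Leaving out 1 tumor at a time gave 0 to 2 members called in 66cl4 tumors of BALB/c hosts (2 without control replicate 1), 0 to 1 in 67NR tumors of NSG hosts (Vegfa at 1.09, limma adjusted p = 0.0488, without BPTF KD replicate 4, and Pgf at 0.48, limma adjusted p = 0.0348, without BPTF KD replicate 5), 0 to 1 in the mean of the 4 comparisons (Eng without replicate 6 of 67NR BALB/c BPTF KD), 0 to 1 for the difference between lines in the BPTF KD label effect in NSG hosts, 1 to 3 in the difference of host effects, 4 to 6 between hosts and 9 between lines throughout. Uncalled values that changed sign when 1 tumor was left out ran, in 67NR tumors of BALB/c hosts, from -0.35 to 0.0053 for Cdh5 and from -0.20 to 0.082 for Vegfa; in 66cl4 tumors of BALB/c hosts from -0.40 to 0.005 for Kdr, from -0.15 to 0.27 for Flt1 and from -0.17 to 0.033 for Eng. In 67NR tumors of NSG hosts they ran from -0.0907 to 0.085 for Pecam1 and from -0.17 to 0.027 for Angpt2, and in 66cl4 tumors of NSG hosts from -0.40 to 0.11 for Pecam1, -0.25 to 0.35 for Cdh5, -0.093 to 0.14 for Kdr and -0.13 to 0.16 for Tie1. Between hosts Flt1 ran from -0.0808 to 0.024.

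Other uncalled values that changed sign were small. For BPTF KD against control, median subtraction gave 0.032 for Pecam1 in 67NR and 0.0083 for Tie1 in 66cl4 tumors of NSG hosts, the integrity covariate 0.18 for Pecam1 in 67NR tumors of NSG hosts and -0.018 for Flt1 in 66cl4 tumors of BALB/c hosts, and the mean of probe sets -0.063 for that Flt1 value. Between hosts Pecam1 was 0.0082 with the muscle covariate, Flt1 was 0.063 in BPTF KD tumors alone, 0.14 in 67NR tumors alone, 0.18 with the muscle covariate and 0.018 with the mean of probe sets, and in 66cl4 tumors alone Angpt2 was 0.046 and Pgf -0.18. Between lines Pgf was -0.18 in control tumors alone and -0.16 in BALB/c hosts alone.

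Groups share replicate numbers in the labels. Deviations of same-numbered BPTF KD and control tumors correlated at -0.451 to 0.268, and at most 1 of 3 pairs in a line and host was over 0.1. With 3 pairs in a line and host, these values cannot say whether the numbers pair the tumors. With the replicate block, members called were 1 in 67NR tumors of NSG hosts (Vegfa at 0.88, limma adjusted p = 0.0361), against 0, and 2 in the difference of host effects, against 1, and in no other comparison did their number change. Uncalled values that changed sign under the block were Tek (0.13) and Vegfa (0.073) in 67NR tumors of BALB/c hosts, Flt1 (-0.077) in 66cl4 tumors of BALB/c hosts, Flt1 (-0.10) and Angpt2 (0.15) in 67NR tumors of NSG hosts and Cdh5 (-0.0067) in 66cl4 tumors of NSG hosts.

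Genes called over all 12394 were 141 (10 to 685 under the other alternatives, 5 to 620 leaving out 1 tumor) in 67NR tumors of NSG hosts, 0 (0 to 607, 0 to 0) in 67NR tumors of BALB/c hosts, 0 (0 to 0, 0 to 4) in 66cl4 tumors of NSG hosts, 23 (0 to 64, 0 to 2208) in 66cl4 tumors of BALB/c hosts, 236 (187 to 943, 49 to 1046) in the mean of the 4, 3551 (1462 to 6430, 3022 to 4272) between hosts, 6128 (3287 to 10683, 5797 to 6485) between lines, 119 (5 to 184, 36 to 317) for the difference between lines in the BPTF KD label effect in NSG hosts and 1891 (1116 to 3208, 1265 to 2420) for the difference of host effects. The first number of each comparison is out of 12394 genes. The ranges under the other alternatives also hold the fit of each probe set alone, which counts probe sets out of 22690 and not genes. Their upper ends are therefore not shares of the 12394 genes. Tie1 is dim, and groups of 3 controls limit every knockdown comparison.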
